A study of Rattus norvegicus with 20 samples.

Results

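The aryl hydrocarbon receptor (AhR) genes described here are the receptor Ahr, its partner Arnt, its repressor Ahrr, and 4 target genes, Tiparp, Cyp1a1, Cyp1a2 and Cyp1b1. They were chosen by symbol: a probe set belonged to them where the array annotation gave it exactly 1 of these 7 symbols. All 7 of 7 genes were measured, through 9 probe sets, among 13462 genes in all, and no filter on low values removed any of them. Ahr and Tiparp had a second probe set each. No diet difference of any of the 7 genes passed the test on all 20 arrays. The widest separation was in Cyp1a2, which was below every casein-fed rat in 13 of 15 soybean-fed rats.

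Messenger RNA was measured in whole liver of male Sprague-Dawley rats, an outbred strain, which arrived at 4 weeks of age, adapted to a commercial diet for 5 days and then ate an experimental diet for 21 days. The 4 diets, with 5 arrays each of 1 rat per array, were a 3:1 high-isoflavone diet (protein from 3 parts casein and 1 part Yukipirika soybean), a 1:1 high-isoflavone diet (equal protein from casein and Yukipirika), a conventional soybean diet (equal protein from casein and the cultivar Fukuyutaka) and a casein diet (casein at 200 g/kg). Casein was thus part of every diet. Only rats with an average food intake were put on arrays, so rats at the extremes of intake are not represented. The labels do not tie the array titles to the diet codes, and which of the high-isoflavone titles is the 3:1 diet was read from their wording.

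AhR is a transcription factor that waits in the cytoplasm with the chaperone HSP90 and enters the nucleus when a ligand binds. There it pairs with ARNT and binds response elements that contain the letters GCGTG. Dioxins and polycyclic hydrocarbons are known ligands, as are many plant compounds, some flavonoids among them, and breakdown products of tryptophan. In liver the best known targets are the cytochrome P450 genes of family CYP1, whose enzymes oxidize drugs, caffeine, oestrogens and carcinogens. AHRR and TIPARP are themselves induced by AhR and hold it back.

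The stretches of 250 bases upstream of the gene starts were searched for GCGTG and for the longer form TNGCGTG on both strands, because these letters lie inside the element that AhR and ARNT bind. The sequences are those of RefSeq on the GRCr8 assembly, where 6 of the 7 genes had an entry. GCGTG was found in 4 of these 6 promoters and in 25.9% of 33469 rat promoters of the same length. TNGCGTG, every match of which is also a match of GCGTG, was found in 2 of the 6 (Ahrr and Cyp1b1) and in 4.09% of all promoters. Ahrr and Cyp1a2 are printed since their values stood farthest from those of casein-fed rats, and Cyp1b1 and Tiparp since they are the other target genes with an entry. Each is given 5′ to 3′ along the gene, in lower case with every GCGTG, or CACGC where it lies on the other strand, in capitals.
Ahrr: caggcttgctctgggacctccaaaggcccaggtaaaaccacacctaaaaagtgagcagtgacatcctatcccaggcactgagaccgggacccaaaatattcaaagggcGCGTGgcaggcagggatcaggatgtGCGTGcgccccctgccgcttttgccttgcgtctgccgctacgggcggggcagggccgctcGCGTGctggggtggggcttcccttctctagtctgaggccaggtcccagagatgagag
Cyp1b1: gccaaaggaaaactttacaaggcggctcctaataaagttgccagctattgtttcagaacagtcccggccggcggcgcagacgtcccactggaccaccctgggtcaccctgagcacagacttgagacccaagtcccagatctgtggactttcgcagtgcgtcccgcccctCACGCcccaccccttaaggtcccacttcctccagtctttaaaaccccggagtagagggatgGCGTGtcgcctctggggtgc
Tiparp: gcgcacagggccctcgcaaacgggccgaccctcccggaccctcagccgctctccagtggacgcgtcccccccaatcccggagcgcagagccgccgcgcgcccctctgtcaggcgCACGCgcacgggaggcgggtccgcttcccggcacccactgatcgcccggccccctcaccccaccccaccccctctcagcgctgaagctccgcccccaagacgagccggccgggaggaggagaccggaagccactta
Cyp1a2: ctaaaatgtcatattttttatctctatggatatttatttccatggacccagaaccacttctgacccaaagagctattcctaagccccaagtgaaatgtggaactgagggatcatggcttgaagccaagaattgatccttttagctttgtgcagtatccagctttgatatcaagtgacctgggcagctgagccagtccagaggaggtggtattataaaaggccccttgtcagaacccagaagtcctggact
The Ahrr stretch (chr1:30821969-30822218, plus strand) held 3 matches, the Cyp1b1 stretch (chr6:21094315-21094564, plus strand) held 2, and the Tiparp stretch (chr2:152063519-152063768, plus strand) held 1. The Cyp1a2 stretch (chr8:66978150-66978399, minus strand) held 0, as did that of Ahr, and that of Arnt held 1. A match describes letters only, and elements farther from the gene start lie outside these windows. Cyp1a1 and Cyp1a2 are neighbours on rat chromosome 8, with 0 annotated genes between them.

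Signals are given as log2 values, on which a step of 1 is a doubling, and they are compared between rats for 1 probe set at a time. The probe sets of Ahrr, Arnt and Tiparp and the second one of Ahr had a mean below the median of all probe sets tested. No detection call was used, so how far these signals lie above background is not known. Differences were tested with limma over all 20 arrays, and a difference was called where its p, adjusted over 27702 probe sets by the Benjamini-Hochberg method, was under 0.05. All but 1 of 7 hepatocyte markers were among the brightest probe sets of every array: Alb, Ttr, Apoa1, Apoc3, Serpina1 and Fgb lay no lower than the 99.8th percentile, to 3 digits, on any array. The exception was Tat, a liver enzyme of tyrosine breakdown, which fell on the 1:1 diet by 1.25 (adjusted p = 0.0331) and on the conventional diet by 1.20 (adjusted p = 0.0487). Array medians ran from 2.43 to 2.52 on the 3:1 diet, 2.45 to 2.57 on the 1:1 diet, 2.51 to 2.56 on the conventional diet and 2.43 to 2.49 on casein. Every conventional array thus had a higher median than every casein array. On 2 arrays, casein replicate 5 and 3:1 replicate 1, the lowest value was 0.45 and 0.47, against at most -0.88 on the other 18 arrays. In whole liver, fewer cells of a type and less RNA per cell cannot be told apart.

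Across the 7 genes, limma called 0 in each comparison. The share of all probe sets called was 0.0397% for the 3:1 diet against casein, 2.21% for the 1:1 diet against casein, 1.64% for the conventional diet against casein and 2.14% for the mean of the 3 soybean diets against casein. It was 0.0758% for the 1:1 diet against the conventional diet and 0% for the 1:1 against the 3:1 diet. A count of 0 among 7 genes is therefore near the background in every comparison. At an unadjusted p under 0.05, 1 of 7 genes stood out on the 3:1 diet (Cyp1a2), 1 on the 1:1 diet (Arnt), 1 on the conventional diet (Ahrr) and 3 in the mean of the soybean diets (Cyp1a2, Ahrr and Tiparp). The share of all probe sets at that level was 8.12% on the 3:1 diet, 16.8% on the 1:1 diet, 16.8% on the conventional diet and 16.4% for the mean of the soybean diets. Between soybean diets it was 1 of 7 for 1:1 against conventional (Ahrr, with 7.07% of all probe sets) and 0 of 7 for 1:1 against 3:1 (7.22%). The median difference over the 7 genes was 0.12 on the 3:1 diet, 0.065 on the 1:1 diet and -0.12 on the conventional diet, beside 0.010, 0.037 and 0.059 over all probe sets. A straight-line trend over the share of high-isoflavone soybean gave the same values as the 1:1 diet against casein, since its 3 shares are equally spaced.

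**Figure D1:**
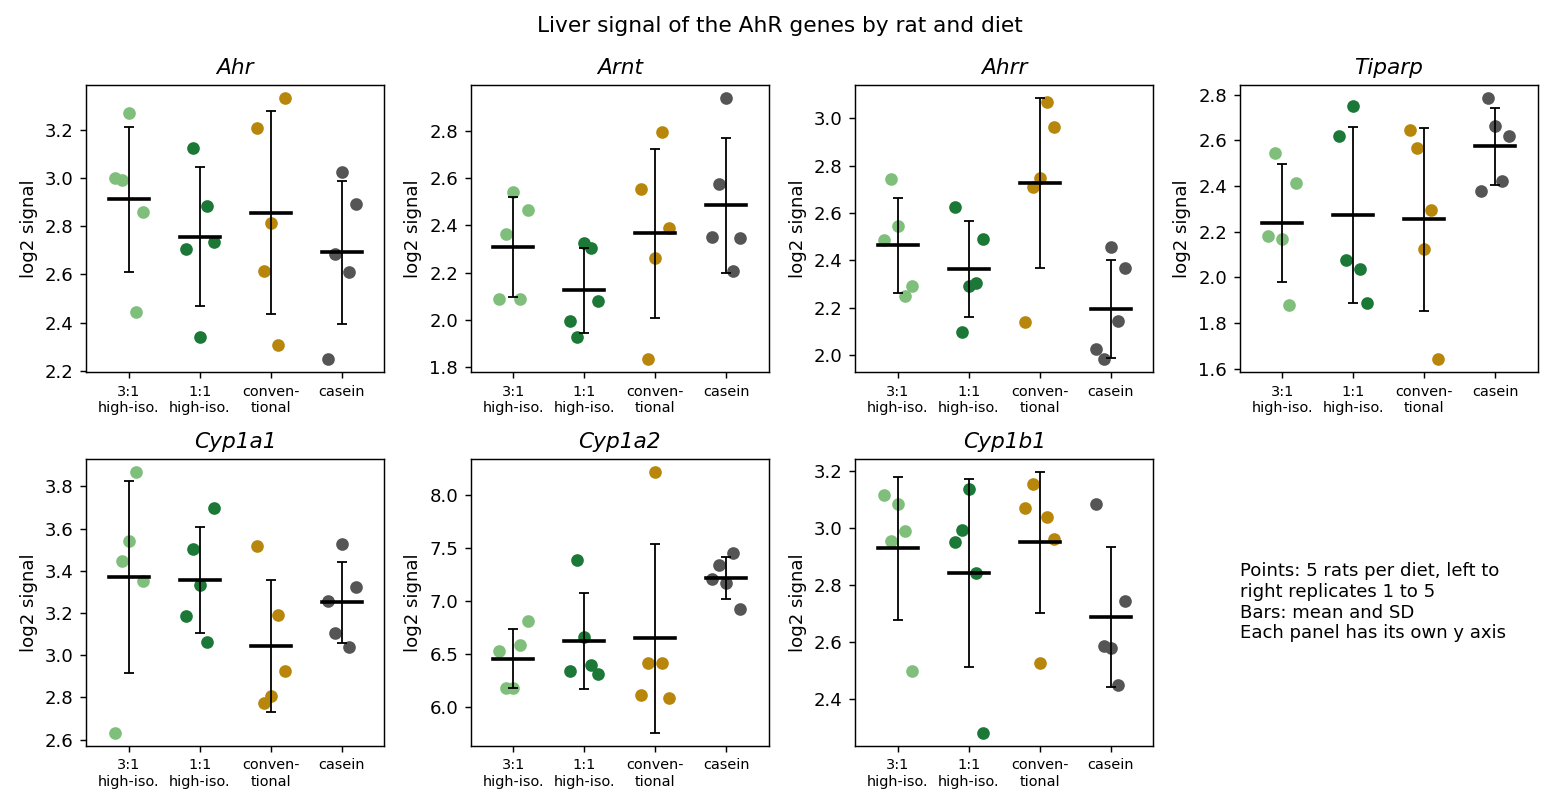
Each panel plots the log2 signal of 1 AhR gene (y axis) by diet (x axis), with 1 point per rat and bars at the mean and SD of 5 rats; each panel has its own y axis. The Cyp1a2 panel shows 13 of 15 soybean-fed rats below all casein-fed rats, with conventional replicate 3 at 8.22 and 1:1 replicate 2 at 7.38 as the exceptions, and in the other panels the soybean diets overlap casein.

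Ahr and Arnt, which together form the DNA-binding pair, were measured at levels that overlapped in all 4 diets. Ahr (probe set 1369147_at) averaged 2.91 ± 0.30 on the 3:1 diet, 2.76 ± 0.29 on the 1:1 diet, 2.86 ± 0.42 on the conventional diet and 2.69 ± 0.30 on casein (log2, SD, n = 5 each). No diet stood out in that order, and 11 of 15 soybean-fed rats lay within the casein range of 2.25 to 3.02. The mean of the soybean diets was 0.15 above casein (SE 0.16, limma adjusted p = 0.696), with a 95% interval of -0.18 to 0.48. The second Ahr probe set (1369146_a_at) gave 0.11 for the same difference (SE 0.15, adjusted p = 0.777), but it put the 1:1 diet 0.17 above the 3:1 diet where the first had it 0.15 below.

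Arnt (1369244_at) pairs with AhR and with the hypoxia-inducible factors. Its signals on the 1:1 diet were 1.99, 1.93, 2.32, 2.30 and 2.08, against 2.35, 2.58, 2.94, 2.21 and 2.35 on casein. Of the 5 rats on the 1:1 diet, 3 were below all casein-fed rats and 2 were within their range. The difference was -0.36 (SE 0.16, unadjusted p = 0.0384, adjusted p = 0.267 by limma). Arnt averaged 2.31 ± 0.21 on the 3:1 diet and 2.37 ± 0.36 on the conventional diet (log2, SD, n = 5 each), values between those of the 1:1 diet (2.13 ± 0.18) and casein (2.48 ± 0.29). None of the neighbours in that order differed beyond their spread.

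Ahrr (1380746_at), the repressor that competes with AhR for ARNT, had its highest mean on the conventional soybean diet. Its signals there were 2.14, 2.71, 2.75, 3.07 and 2.96, against 2.02, 1.98, 2.46, 2.14 and 2.37 on casein. On the conventional diet 4 of 5 rats were above all casein-fed rats, and replicate 1 was within their range. The difference was 0.53 (SE 0.15), and it did not pass the adjustment (unadjusted p = 0.00240, adjusted p = 0.0797 by limma). Without conventional replicate 1 it was 0.68 with an adjusted p of 0.0183, so that the call turned on 1 rat. This rat had the lowest Ahrr of its diet, so leaving it out had to widen the difference, and this p is no separate support for a rise.

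On the high-isoflavone diets Ahrr was closer to casein. It was 2.49, 2.74, 2.54, 2.25 and 2.29 on the 3:1 diet and 2.62, 2.10, 2.29, 2.30 and 2.49 on the 1:1 diet. In all, 3 rats on the 3:1 diet and 2 on the 1:1 diet were above all casein-fed rats, and the others lay within the casein range. The difference from casein was 0.27 on the 3:1 diet (adjusted p = 0.712) and 0.17 on the 1:1 diet (adjusted p = 0.640). Set directly against each other, the 1:1 diet was 0.36 below the conventional diet (difference -0.36, SE 0.15, unadjusted p = 0.0279, adjusted p = 0.640 by limma). In the mean of the soybean diets Ahrr was 0.32 above casein, with a 95% interval of 0.061 to 0.58 that is not adjusted for the number of probe sets (adjusted p = 0.196).

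Tiparp (1374446_at), the enzyme that attaches ADP-ribose to AhR and limits its activity, had lower means on all 3 soybean diets. Its signals were 2.18, 2.55, 2.17, 1.88 and 2.41 on the 3:1 diet and 2.62, 2.07, 2.75, 2.04 and 1.89 on the 1:1 diet. They were 2.64, 2.57, 2.12, 2.29 and 1.64 on the conventional diet, against 2.38, 2.79, 2.66, 2.42 and 2.62 on casein. In each soybean diet 3 rats were below all casein-fed rats, 9 of 15 in all, and none was above them. The differences from casein were -0.34 on the 3:1 diet, -0.30 on the 1:1 diet and -0.32 on the conventional diet. For the mean of the 3 diets the difference was -0.32 (SE 0.15, unadjusted p = 0.0497, adjusted p = 0.304 by limma). The second Tiparp probe set (1385407_at), with dimmer signals of 0.51 to 1.85, gave -0.11 (SE 0.21, adjusted p = 0.849), and on the conventional diet it lay 0.11 above casein.

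Cyp1a1 (1370269_at) encodes the CYP1 enzyme that ligands of AhR induce most strongly in many tissues. Its signals were 2.63, 3.45, 3.54, 3.87 and 3.35 on the 3:1 diet and 3.19, 3.50, 3.33, 3.06 and 3.70 on the 1:1 diet. They were 3.52, 2.78, 2.80, 3.19 and 2.93 on the conventional diet, against 3.26, 3.10, 3.53, 3.04 and 3.32 on casein. Of 15 soybean-fed rats, 8 lay within the casein range, 4 below it and 3 above it. The mean of the soybean diets differed from casein by 0.0059 (SE 0.15, adjusted p = 0.990 by limma), with a 95% interval of -0.31 to 0.32. The sign of this difference turned under quantile normalization (-0.051) and under centring and scaling (-0.056). By diet, Cyp1a1 differed from casein by 0.12 on the 3:1 diet, 0.11 on the 1:1 diet and -0.21 on the conventional diet, with adjusted p of 0.934, 0.834 and 0.597. The 1:1 diet was 0.31 above the conventional diet (SE 0.19, adjusted p = 0.775).

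Cyp1a2 (1387243_at), the CYP1 enzyme that is made in liver without an inducer and that oxidizes caffeine, ran from 6.08 to 8.22 over the 20 rats, and from 6.08 to 7.45 without conventional replicate 3. Its signals were 6.52, 6.17, 6.17, 6.58 and 6.81 on the 3:1 diet and 6.34, 7.38, 6.66, 6.40 and 6.31 on the 1:1 diet. They were 6.11, 6.41, 8.22, 6.41 and 6.08 on the conventional diet, against 7.20, 7.33, 7.17, 7.45 and 6.93 on casein. All 5 rats on the 3:1 diet, 4 of 5 on the 1:1 diet and 4 of 5 on the conventional diet were below every casein-fed rat. The rats of the 3:1 diet and casein did not overlap, which was so, with lower values on the 3:1 diet, in 0.718% of all probe sets. Taking both directions, groups without overlap made up 1.81% of all probe sets for the 3:1 diet, 4.45% for the 1:1 diet and 4.62% for the conventional diet against casein, and 0.379% for all soybean-fed rats against casein. Between soybean diets the share was 1.4% for 1:1 against conventional and 1.14% for 1:1 against 3:1. No other AhR gene had groups without overlap in these 6 comparisons.

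The Cyp1a2 difference from casein was -0.76 on the 3:1 diet (SE 0.29, unadjusted p = 0.0168, adjusted p = 0.497 by limma), -0.60 on the 1:1 diet (adjusted p = 0.314) and -0.57 on the conventional diet (adjusted p = 0.334). In the mean of the soybean diets it was -0.64 (SE 0.24), or 0.640 times the casein signal, with a 95% interval of 0.453 to 0.905 (adjusted p = 0.171). Conventional replicate 3 decided this call. Without it the difference was -0.77 for the mean of the soybean diets (adjusted p = 0.00610) and -0.96 for the conventional diet (adjusted p = 0.0180), both past the threshold. No Cyp1a2 difference between soybean diets passed the test: it was -0.028 for 1:1 against conventional (95% interval -0.64 to 0.58) and 0.17 for 1:1 against 3:1 (95% interval -0.44 to 0.78).

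Cyp1a2 is a gene of pericentral hepatocytes, those around the central vein. Over 9 other pericentral genes 0 were called in any comparison, and Gulo, which completes vitamin C synthesis in rats, had the smallest p (-0.35 for the mean of the soybean diets, adjusted p = 0.130). The rat with the highest Cyp1a2, conventional replicate 3, also had the highest summed pericentral signal of the 20 arrays, at 1008, against 719 to 863 on casein, and the highest mean log2 signal of these genes, at 5.01, against 4.16 to 4.65 on casein. The other rat that stood out, 1:1 replicate 2, had the second highest sum, at 920, but its mean log2 signal of 4.31 lay within the casein range. Cyp2e1, the brightest of these genes, weighs most in the sums. It was 9.21 in conventional replicate 3 and 9.34 in 1:1 replicate 2, against 8.79 to 9.06 on casein. Cyp2e1 was also above all casein-fed rats in 1:1 replicate 1 (9.16), 3:1 replicate 4 (9.12) and conventional replicate 1 (9.10). In these rats Cyp1a2 was low, at 6.34, 6.58 and 6.11. On the linear scale the sum of 7 macrophage markers was also highest in conventional replicate 3, at 260, against 164 to 254 on casein. In 1:1 replicate 2 this sum was 167, near the lower end of the casein range. The mean log2 signal of these markers in 1:1 replicate 2, at 3.76, was below all casein-fed rats (3.87 to 4.43). All 7 macrophage markers were below casein in the mean of the soybean diets, with a median difference of -0.19 and 0 called (C1qb -0.19, adjusted p = 0.274). Their part in the Cyp1a2 values was not tested.

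**Figure D2:**
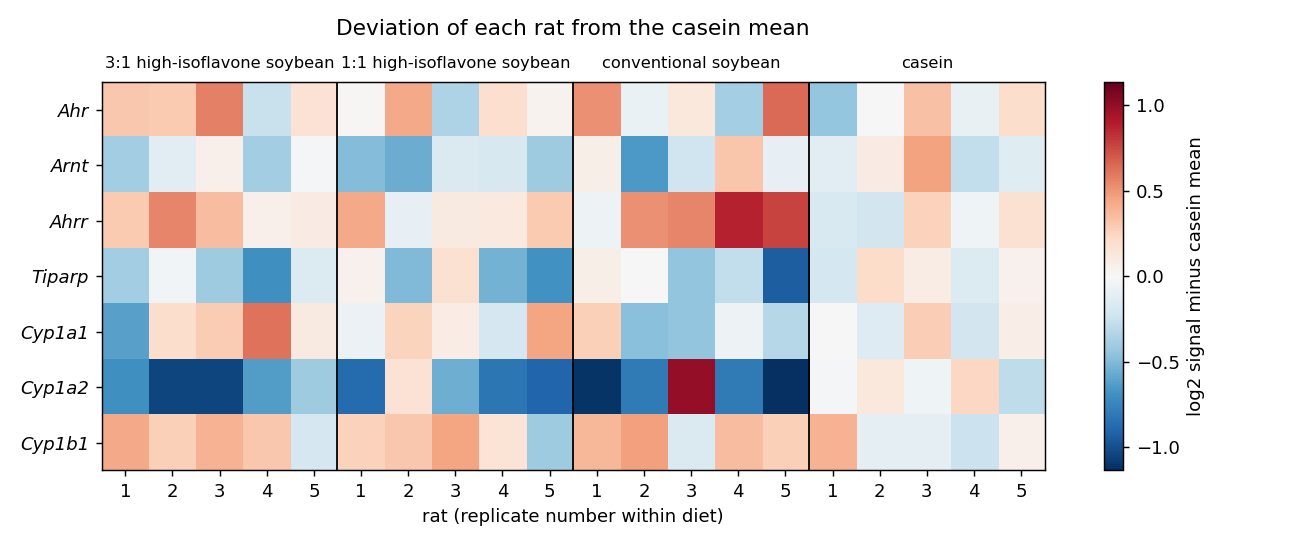
The colour map shows each rat's log2 signal minus the casein mean of the same gene, with the 7 AhR genes as rows and the 20 rats as columns grouped by diet; red is above and blue below the casein mean. In the Cyp1a2 row the soybean columns are blue except for conventional replicate 3 (8.22) and 1:1 replicate 2 (7.38). In the Ahrr row 13 of 15 soybean-fed rats are above the casein mean, in the Tiparp and Arnt rows 12 of 15 are below it, and in the Cyp1b1 row 12 of 15 are above it.

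Cyp1b1 (1368990_at), the CYP1 enzyme that is mostly made outside hepatocytes and that hydroxylates oestradiol, had higher means on all 3 soybean diets. It averaged 2.93 ± 0.25 on the 3:1 diet, 2.84 ± 0.33 on the 1:1 diet, 2.95 ± 0.25 on the conventional diet and 2.69 ± 0.24 on casein (log2, SD, n = 5 each). Of 15 soybean-fed rats, 11 lay within the casein range, 3 above it and 1 below it. The mean of the soybean diets was 0.22 above casein (SE 0.13, adjusted p = 0.435 by limma), with a 95% interval of -0.057 to 0.49. Stellate cells are a known liver source of Cyp1b1, and of 8 stellate cell markers 0 were called. The one with the smallest p was Des (0.39, adjusted p = 0.0941), and their summed linear signal ran from 122 to 132 on the 3:1 diet, 128 to 157 on the 1:1 diet, 128 to 160 on the conventional diet and 119 to 148 on casein. Their part in the Cyp1b1 values was not tested.

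**Figure D3:**
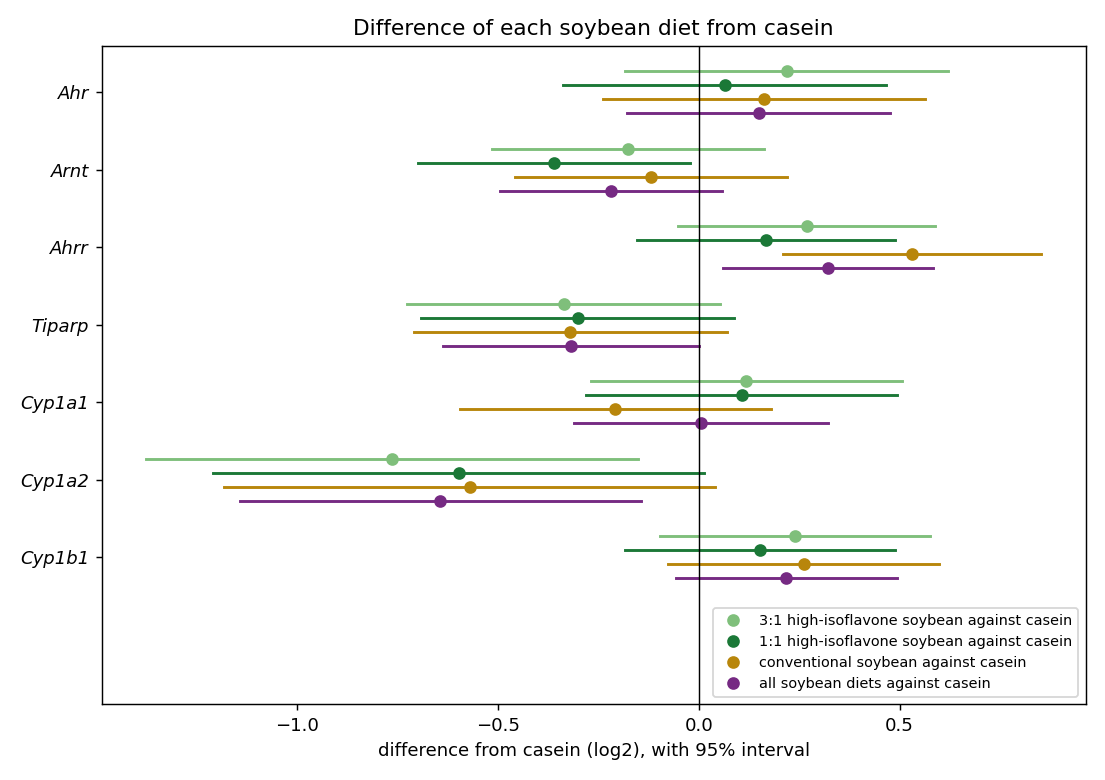
Points are the log2 differences of each soybean diet, and of the mean of the 3, from casein (x axis) for the 7 AhR genes (y axis), and lines are 95% intervals that are not adjusted for the number of probe sets. For Ahrr the intervals of the conventional diet (0.21 to 0.85) and of the mean lie above 0, and for Cyp1a2 those of the 3:1 diet (-1.37 to -0.15) and of the mean (-1.14 to -0.14) lie below 0. Arnt on the 1:1 diet (-0.70 to -0.021) and Tiparp for the mean (-0.64 to -0.00041) also lie below 0, and the other intervals plotted include 0.

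No pair of the AhR genes was correlated from rat to rat within diets beyond the test. The mean of each diet was subtracted from the signals before the pairs were compared, so correlation that follows the diet means is left out. Among the 21 pairs of the 7 genes, Pearson's r of the remaining values over the 20 rats lay between -0.35 and 0.36. Permutation tests gave no adjusted p under 0.882 for r or under 0.867 for Spearman's rho. The rho farthest from 0 was that of Ahrr and Cyp1a2, at -0.47 (permutation p = 0.0534, adjusted p = 0.867), with an r of -0.21. That r was -0.46 without the 2 rats farthest from the median of Ahrr after the subtraction. For the neighbours Cyp1a1 and Cyp1a2, r was -0.21 (permutation p = 0.415) and Spearman's rho was -0.27 (permutation p = 0.276). Without the 2 rats farthest from the median of Cyp1a1 after the subtraction, r was -0.31.

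The genes whose signal ran most like each AhR gene over the 20 rats were looked up among the 8409 genes whose mean was above the median, as a description. Here the diet means were left in, so these r are not comparable with those of the pairs above. The highest r was with Slc27a2, a fatty acid transport and activation protein, for Cyp1a1 (0.84, followed by Crat, carnitine acetyltransferase, with 0.80). For Cyp1a2 it was with C1qb, a complement gene of macrophages (0.79), then Ucp2 (0.78). Without the 2 rats farthest from the median, the r of Cyp1a2 with C1qb was 0.63. For Tiparp it was with Mid1ip1, which promotes fatty acid synthesis (0.78), then Wdr82 (0.75). Ahr ran most like Slc20a2 (0.77) and Dhrsx (0.72), Arnt like Lypd10 (0.77) and LOC102554253 (0.68), Ahrr like Ifi35 (0.70) and Il5 (0.69), and Cyp1b1 like Itgb1bp2 (0.74) and Adam19 (0.73). The rats share diets and arrays, and each r is the first or second highest of 8409.

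The lists of related genes are read against the same background as the 7 genes. Over 4 lists of the pathway (8 genes of the AhR complex and its co-regulators, 6 other AhR-responsive genes, 8 other partners in the Arnt family and 6 genes from tryptophan to kynurenine) 0 of 28 were called in any comparison, and the smallest adjusted p was 0.0555. The median difference of the soybean diets from casein was -0.067 for the complex, -0.069 for the responsive genes, 0.011 for the Arnt-family partners and -0.078 for the tryptophan genes, against 0.034 over all probe sets.

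Among these, the gene with the smallest p in each list was as follows for the mean of the soybean diets against casein. Ep300, a histone acetyltransferase that AhR recruits, differed by -0.22 (adjusted p = 0.252). Fgf21, a hormone secreted by the liver that AhR has been reported to regulate in mouse, differed by -0.83 (adjusted p = 0.130). Hif3a, a hypoxia-inducible factor, differed by 0.44 (adjusted p = 0.261). Kmo, which hydroxylates kynurenine, differed by 0.32 (adjusted p = 0.0703). None of the 4 passed the test.

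Of 8 genes that supply electrons or haem to cytochromes P450, 2 were called in at least 1 comparison, both of them in the mean of the soybean diets. Cyb5r3, the reductase of cytochrome b5, fell in the mean of the soybean diets by 0.70 (SE 0.11, adjusted p = 0.00293), on the 1:1 diet by 0.96 (adjusted p = 0.000758) and on the conventional diet by 0.62 (adjusted p = 0.0294). Cyb5a, cytochrome b5 itself, rose by 0.30 in the mean of the soybean diets (adjusted p = 0.0449) and by 0.38 on the conventional diet (adjusted p = 0.0492).

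Of 9 genes of the receptors CAR and PXR with their targets, which handle other foreign compounds in liver, 2 were called in at least 1 comparison. Only 1 of them was called in the mean of the soybean diets. The share of all probe sets called in any comparison was not counted. Cyp3a23-3a1, a PXR target, rose by 0.72 in the mean of the soybean diets (SE 0.13, adjusted p = 0.00592), by 0.79 on the 1:1 diet and by 0.81 on the conventional diet. Nr1i3, the gene of CAR, rose by 1.20 on the 1:1 diet (SE 0.28, adjusted p = 0.0250). It did not pass in the mean of the soybean diets (0.80, adjusted p = 0.0751). Nr1i3 averaged 2.83 on the 1:1 diet, 2.64 on the conventional diet, where it was not called, 1.80 on the 3:1 diet and 1.62 on casein. Its signals on casein, 0.99 to 2.11, were below the array medians, and their height above background is not known. In the same fit the AhR genes nearest the threshold were Ahrr on the conventional diet (adjusted p = 0.0797) and Cyp1a2 in the mean of the soybean diets (adjusted p = 0.171). Whether the lists differed from the 7 AhR genes was not tested.

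Among 9 periportal genes 1 was called: Hal, the first enzyme of histidine breakdown, rose by 0.62 in the mean of the soybean diets (adjusted p = 0.00415). Of 4 bile duct markers, Epcam fell by 0.76 (adjusted p = 0.00319) and Krt19 rose by 0.97 (adjusted p = 0.0391), and their summed signal ran from 15.5 to 19.5 on the 3:1 diet, 15.0 to 19.9 on the 1:1 diet, 16.1 to 23.1 on the conventional diet and 13.8 to 21.4 on casein. Of the endothelial (5), lymphocyte (4) and pancreas (5) markers 0 were called. The gene with the smallest p was Lyve1 among endothelial markers (0.065, adjusted p = 0.719), Cd8a among lymphocyte markers (0.15, adjusted p = 0.593) and Pnlip among pancreas markers (0.17, adjusted p = 0.493).

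**Figure D4:**
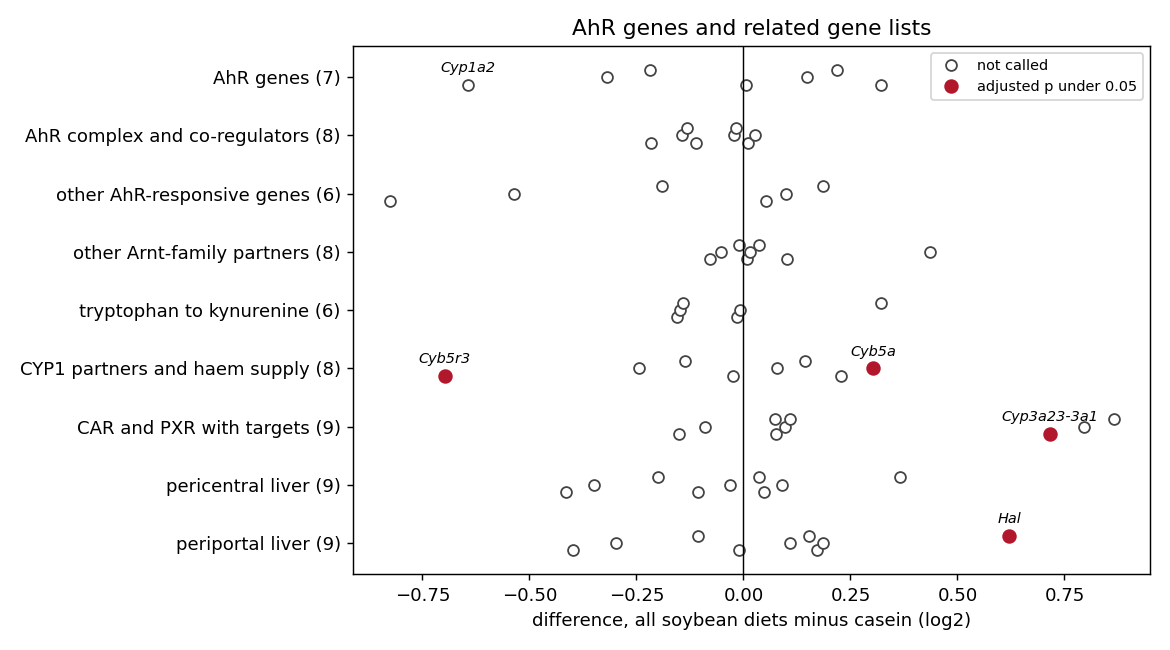
Each point is 1 gene, placed by its log2 difference between the mean of the 3 soybean diets and casein (x axis), in rows for the AhR genes and the lists with the number of genes measured; filled points have an adjusted p under 0.05. No point of the AhR row or of the 4 pathway rows is filled, and Cyp1a2 at -0.64 is the lowest of the AhR row.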

How the data were processed

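Liver RNA of 20 rats, 5 per diet, was measured on 20 arrays that read the 3′ end of messenger RNAs. The authors deposited 1 value table, normalized with the SuperNORM data service per the labels; neither its version nor its way of summarizing probes is stated there. The deposited values were taken as log10, a base no label states, because the slope against the known relative amounts of spike-in controls was 0.969 (SD 0.0175, 20 arrays). They were multiplied by 3.32193 to give log2 values, with no further normalization. Of 31099 probe sets, 3342 without values and 57 controls (2 were both) were left out, which left 27702, of which 19147 had 1 gene symbol, 404 several and 8151 none. Where a gene had several probe sets with 1 symbol, the brightest on average stood for it. Diets were compared over the 20 arrays (a mean for each diet, variance trend) by limma 3.58.1, run in R 4.3.3, with Benjamini-Hochberg adjusted p-values over all probe sets. The labels name biological replicates, 1 rat each. Depth does not apply to arrays; their number limits the precision.

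The 7 genes and the 15 gene lists (128 symbols, 103 of them measured) were chosen with earlier results of these data known. Named besides the 7 genes were the genes called in each list, or else the one with the smallest p, and the 2 genes most correlated with each AhR gene. Alternatives were quantile normalization, centring and scaling, a filter on dim probe sets, a floor, other variance models, fits to the compared diets alone, the replicate number as a block, second probe sets, and arrays left out. The code was tested on simulated data. Promoters are RefSeq's on GRCr8; the labels name no build for the arrays.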

Additional observations from a re-analysis of the deposited data

Results flagged for a closer look

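In 36 sets of 5 rats (9 probe sets in 4 diets), the highest or lowest rat was checked for a gap to its nearest neighbour that is large for the range of its set (Dixon's test). Chance flags about 1 in 20 such sets, and 2 of 36 stood out. Cyp1a2 was 8.22 in conventional replicate 3, with the other 4 rats of that diet between 6.08 and 6.41. Over all probe sets this array was the one apart from its diet in 1.10%, within the range of 0.661% to 1.80% over the 20 arrays. Its log2 difference between the 3′ and 5′ control probe sets was 1.83 for actin and 0.917 for GAPDH, the highest of its diet. Over the 20 arrays this difference ran from 1.07 to 2.13 for actin and from 0.700 to 1.06 for GAPDH. Cyp1b1 was 2.50 in 3:1 replicate 5, with the other 4 rats of that diet between 2.95 and 3.11.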

How the results depend on the processing

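The count of AhR genes called stayed at 0 under 212 of 216 alternatives. The 216 count the trend as a comparison of its own, though its differences repeat those of the 1:1 diet against casein. The count was 1 without conventional replicate 3, for the mean of the soybean diets (Cyp1a2 -0.77, adjusted p = 0.00610) and for the conventional diet (Cyp1a2 -0.96, adjusted p = 0.0180). It was also 1 for the conventional diet without conventional replicate 1 (Ahrr 0.68, adjusted p = 0.0183) and without number 1 of all 4 diets (Ahrr 0.64, adjusted p = 0.0368), so that leaving out 1 array gave 0 to 1 in both comparisons. Among all probe sets, 562 were called without conventional replicate 3 for the mean of the soybean diets and 200 for the conventional diet. For the conventional diet, 315 were called without conventional replicate 1 and 338 without number 1 of all 4 diets. Whether 1 of 7 genes exceeds the background of these fits was not tested. Of 1265 alternatives of the 42 single differences, 1215 kept their sign and their side of the threshold, 4 passed it and 46, none of them called, changed sign; the cause was not tested. The second probe set gave, for Ahr, 0.17 for 1:1 against 3:1 and 0.15 for 1:1 against conventional, and, for Tiparp, -0.17 for 1:1 against 3:1, -0.41 for 1:1 against conventional and 0.11 for conventional against casein. Without number 1 of all diets Ahr was 0.0029 for 1:1 against conventional, -0.033 for 1:1 and -0.036 for conventional against casein, and Tiparp was -0.066 for 1:1 against 3:1. For the mean of the soybean diets Cyp1a1 was -0.056 under centring and scaling and -0.051 under quantile normalization, which gave 0.0087 for Cyp1a2 in 1:1 against conventional. Leaving out 1 array changed signs within these ranges: Ahr, -0.23 to 0.020 (1:1 against conventional) and -0.046 to 0.17 (1:1 against casein); Arnt, -0.22 to 0.016 (conventional against casein); Cyp1a1, -0.20 to 0.11 (1:1 against 3:1), -0.0068 to 0.30 (3:1 against casein) and -0.047 to 0.075 (mean of the soybean diets); Cyp1a2, -0.025 to 0.26 (1:1 against 3:1) and -0.22 to 0.36 (1:1 against conventional); Cyp1b1, -0.19 to 0.053 and -0.22 to 0.031, and Tiparp, -0.084 to 0.13 and -0.13 to 0.12 (1:1 against 3:1 and against conventional). Over all probe sets, calls for conventional against casein numbered 453 and 114 to 630 under the alternatives, for 3:1 11 and 1 to 26, for 1:1 613 and 296 to 716, for the mean 593 and 212 to 719, for 1:1 against conventional 21 and 11 to 31, and for 1:1 against 3:1 0 and 0 to 1. With the replicate number as a block, 0 AhR genes were called in each comparison. Over 30 pairs of same-numbered rats r ran from -0.16 to 0.40 and was over 0.1 in 12. Its median was 0.034, against -0.0077 for rats with other numbers, and 7 of 20 arrays correlated best with their own number. Whether same-numbered rats shared an effect was not tested. The 5 arrays per diet limit the precision.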
